A study of Mus musculus with 42 samples.

Results

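Messenger RNA of 10 T cell and cytotoxic lymphocyte genes was followed in lung, liver and forestomach of mice given benzo(k)fluoranthene (BkF), which belongs to the polycyclic aromatic hydrocarbons. The genes were Cd3d, Cd3e, Cd3g, Cd4, Cd8a, Lck, Nkg7, Gzma, Gzmb and Prf1, taken by gene symbol. They are measured by 13 of the 55681 probes of the array, which name 20018 genes in all. Male MutaTMMouse, a transgenic strain that carries a bacterial reporter for mutation assays, aged about 11 weeks, received BkF in olive oil by oral gavage each day for 28 days. The vehicle group D0 received olive oil alone (0 mg/kg-bw/day), D1 received 25 mg/kg-bw/day, D2 received 50 and D3 received 100. Tissues were taken 72 hours after the last dose, and RNA came from random pieces of each tissue. Lung was measured in 4, 3, 4 and 4 mice of D0, D1, D2 and D3, liver in 4, 2, 3 and 4, and forestomach in 4, 3, 4 and 3, with 1 array per mouse and tissue and 15 mice in all. Every value below is a log2 ratio of the tissue sample (red channel) over a universal mouse reference RNA pooled from cell lines (green channel), so levels of different genes are not compared with each other.

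T cells recognise antigen through the T cell receptor, which signals through the CD3 chains encoded by Cd3d, Cd3e and Cd3g. CD4 marks helper T cells and CD8 marks cytotoxic T cells, and both co-receptors bring the kinase Lck to the receptor. Cytotoxic T cells and natural killer (NK) cells kill targets by releasing granules, in which perforin (Prf1) lets the proteases granzyme A (Gzma) and granzyme B (Gzmb) into the target cell. Nkg7 encodes a membrane protein of those granules. NK cells share the granule genes with cytotoxic T cells but lack the T cell receptor, and the lung is rich in both. Polycyclic aromatic hydrocarbons such as BkF bind the aryl hydrocarbon receptor (AhR), which is also present in several lymphocyte types.

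The arrays matched their tissue labels by the mean log2 ratio of marker lists. Lung markers read 5.70 to 6.81 in lung and at most 1.46 elsewhere. Liver markers read 7.24 to 8.13 in liver and at most 4.24 elsewhere, in forestomach. Squamous markers read 3.00 to 4.38 in forestomach and at most 3.18 elsewhere, on the lung array of D2 mouse 12. All 5 of the lung markers and all 5 of the liver markers were well above background in their own tissue. Lung and forestomach shared 4 slides and liver lay on 2 others, so liver and slide cannot be told apart. In lung, each slide held 1 mouse of every dose group, except that slide 4 had none of D1, and the position on the slide followed the dose, so position and dose cannot be told apart. Slide 4 was the brightest, with 32006 to 33379 probes well above background in the red channel, against 22571 to 30272 on the other lung arrays. The lung array of D2 mouse 12 stood apart: its 9 skeletal muscle markers had a mean log2 ratio of 4.90, against -0.95 to -0.44 on the other 14 lung arrays, and its macrophage, neutrophil and squamous scores were the highest in lung. The lung array of D1 mouse 7 carried glandular stomach markers (mean log2 ratio 3.76), as did that of D1 mouse 8 (1.18), against 0.16 to 0.75 on the remaining lung arrays, and on the forestomach arrays the same markers ranged from 0.46 to 6.19.

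The filter on dim probes left all 10 genes in lung, 8 of them in liver and 6 in forestomach. Cd8a and Gzmb were not well above background on any liver or forestomach array, Cd3d was not on any forestomach array, and Gzma was on only 1 of 14 of them, so no dose comparison was made for them there. The second Cd8a probe was well above background on 1 lung array and was not tested. A gene was called when its limma adjusted p was 0.05 or less and it differed 1.5-fold or more. By this rule 0 of the tested genes were called at any dose in any tissue, and the values below describe differences that did not pass it.

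The largest dose differences among the 10 genes were those of Gzma and Gzmb in lung. The 250 bases before the start of each, from RefSeq (GRCm38.p6), are shown because these 4 genes lay lower together in dosed lungs. They stand at chr13:113100982-113101231 on the minus strand for Gzma, chr14:56262335-56262584 on the minus strand for Gzmb, chr10:61297586-61297835 on the plus strand for Prf1 and chr7:43436888-43437137 on the plus strand for Nkg7. Capitals mark matches on either strand to the Runx core TGTGGT, the T-box core GGTGTGA and the AP-1 motif TGANTCA, read 5′ to 3′ along the gene's strand.
Gzma: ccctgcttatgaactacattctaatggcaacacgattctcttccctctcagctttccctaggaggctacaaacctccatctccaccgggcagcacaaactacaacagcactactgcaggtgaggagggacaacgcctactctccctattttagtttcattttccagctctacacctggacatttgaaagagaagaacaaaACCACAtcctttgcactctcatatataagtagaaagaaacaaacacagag
Gzmb: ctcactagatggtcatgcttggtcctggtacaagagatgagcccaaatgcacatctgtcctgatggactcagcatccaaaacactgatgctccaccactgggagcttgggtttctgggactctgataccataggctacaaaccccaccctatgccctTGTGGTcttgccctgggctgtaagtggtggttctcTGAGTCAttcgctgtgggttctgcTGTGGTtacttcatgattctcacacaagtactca
Prf1: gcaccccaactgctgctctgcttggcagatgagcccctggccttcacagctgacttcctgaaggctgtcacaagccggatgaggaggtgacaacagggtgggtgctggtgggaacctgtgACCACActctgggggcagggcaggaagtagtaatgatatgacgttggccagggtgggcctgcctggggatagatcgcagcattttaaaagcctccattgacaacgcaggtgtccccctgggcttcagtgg
Nkg7: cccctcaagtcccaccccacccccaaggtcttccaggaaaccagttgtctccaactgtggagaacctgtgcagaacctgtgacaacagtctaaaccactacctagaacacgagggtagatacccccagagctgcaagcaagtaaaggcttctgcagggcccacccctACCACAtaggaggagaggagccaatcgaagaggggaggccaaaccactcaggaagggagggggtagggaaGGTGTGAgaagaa
Runx and T-box proteins are transcription factors of cytotoxic lymphocytes. The Runx core stood once in the Gzma, Prf1 and Nkg7 windows and 2 times in that of Gzmb, and 14% of the 32851 RefSeq promoters hold it. The T-box core stood in the Nkg7 window (3.33% of promoters) and the AP-1 motif in the Gzmb window (6.75%). The AhR core GCGTG, held by 28.2% of promoters, was in none of the 4. Among the T cell genes with a promoter entry (Cd3d, Cd3e, Cd3g, Cd8a and Lck), the Runx core was in 1 of the 2 Lck windows only, and no other motif matched. These are matches of letters and show no binding.

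Gzma had the largest differences. In the 4 vehicle lungs its log2 ratio was 5.51, 4.75, 5.73 and 4.68. In the lungs of D1 it was 2.50, 3.53 and 2.15, in those of D2 3.58, 1.20, 2.13 and 4.49, and in those of D3 3.09, 1.81, 3.37 and 4.19. All 11 dosed lungs lay below all 4 vehicle lungs, with the highest dosed value, 4.49 in D2 mouse 15, just under the lowest vehicle value. The difference from D0 was -2.44 at D1 (SE 0.68, limma adjusted p = 1.00), -2.32 at D2 (SE 0.63, adjusted p = 0.71) and -2.05 at D3 (SE 0.63, adjusted p = 0.42). At D1 and at D2 this was the most negative difference of all 32695 lung probes tested. Over the mean of the dosed groups, a comparison added after the values at each dose had been seen, Gzma was 4.82-fold lower (log2 difference -2.27, 95% interval -3.38 to -1.16, adjusted p = 0.33). In bulk tissue, fewer cells of a type and less RNA per cell cannot be told apart.

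Prf1 showed the same separation at a smaller size. Its log2 ratio was -0.08, -0.07, 0.45 and 0.03 in the vehicle lungs and ran from -0.64 to -0.30 at D1, -0.35 to -0.18 at D2 and -0.45 to -0.23 at D3. Again no dosed lung reached a vehicle lung. The difference was -0.52 at D1 (SE 0.13, adjusted p = 1.00), -0.35 at D2 (SE 0.12, adjusted p = 1.00) and -0.44 at D3 (SE 0.12, adjusted p = 0.38). Over all doses it was -0.44 (95% interval -0.65 to -0.22, adjusted p = 0.345), a 1.35-fold difference in this fit. Under the scanner's LogRatio it was -0.84 at D1, -0.55 at D2, -0.72 at D3 and -0.70 over all doses (adjusted p = 0.27), none of them called.

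Gzmb was 1.75, 1.67, 2.34 and 1.34 in the vehicle lungs. The values were 0.55, 1.07 and 0.53 at D1, 1.01, 0.56, 0.77 and 1.65 at D2, and 0.97, 0.39, 0.79 and 1.39 at D3. The D1 lungs lay below every vehicle lung, while 1 lung of D2 and 1 of D3, both on the bright slide 4, overlapped with vehicle mouse 4. The difference was -1.06 at D1 (SE 0.28, adjusted p = 1.00), -0.78 at D2 (SE 0.26, adjusted p = 1.00), -0.89 at D3 (SE 0.26, adjusted p = 0.41) and -0.91 over all doses (95% interval -1.38 to -0.44, adjusted p = 0.39). The reference channel of this probe was dim (30.5 to 44.5 intensity units), and with the scanner software's background-subtracted ratio the D3 difference was -0.075.

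Nkg7 differed least. Its vehicle values of 1.05 to 1.66 overlapped with those of D1 (0.81 to 1.18), D2 (1.04 to 1.14) and D3 (0.91 to 1.07). The difference was -0.33, -0.19 and -0.29 at D1, D2 and D3 (SE 0.14, 0.13 and 0.13, adjusted p = 1.00, 1.00 and 0.58). The second Nkg7 probe gave -0.76, -0.49 and -0.54, also with overlap.

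**Figure D1:**
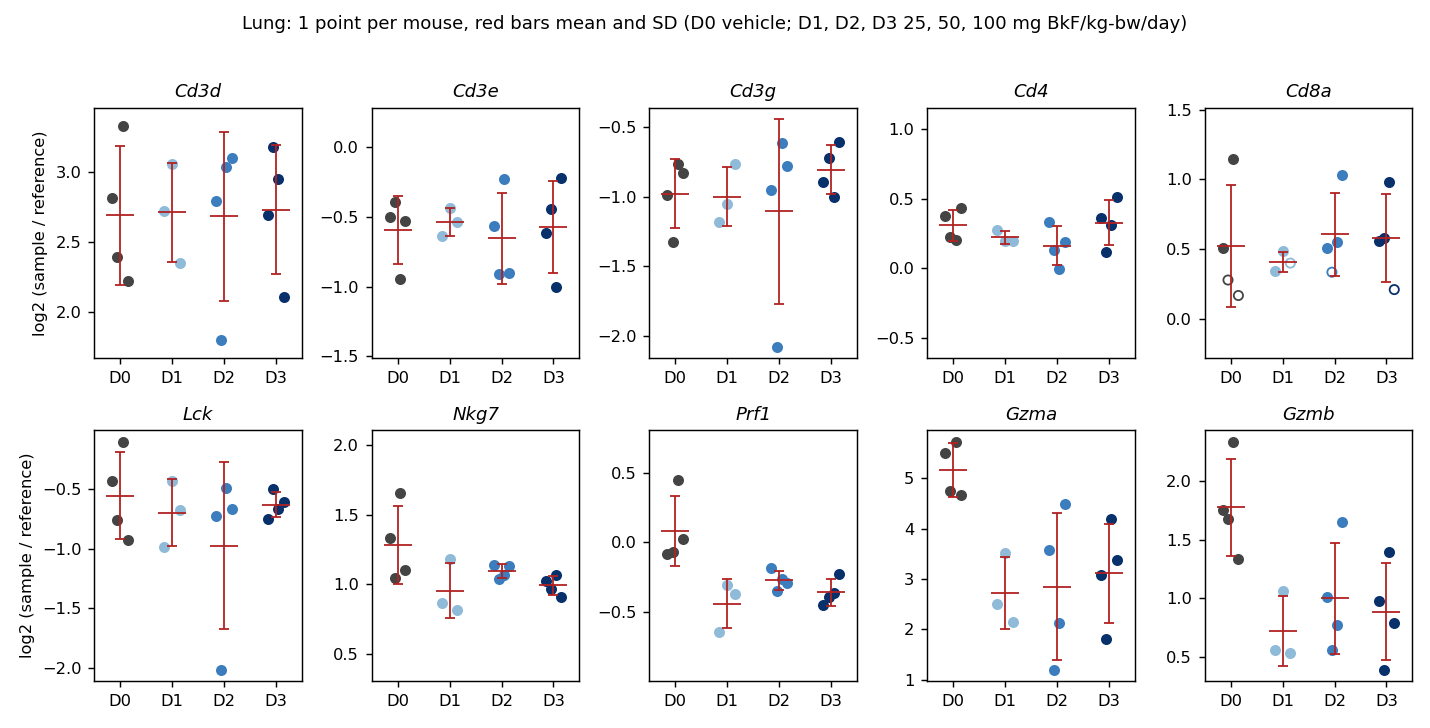
Log2 ratio over the reference RNA (y axis) of the 10 genes in lung by dose group (x axis), with 1 point per mouse and the group mean and SD in red. Open points were not well above background. The dosed lungs lie below all 4 vehicle lungs for Gzma and Prf1, while the Cd3 genes, Cd4, Cd8a and Lck overlap at every dose.

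Calls were rare over the whole array as well: 0% of 32695 probes at D1, 0.0153% at D2, 0.0336% at D3, 0.0214% for the mean of the dosed groups and 0.0367% for the linear dose trend. With no adjustment, a p under 0.05 was found for 4 genes at D1, 3 at D2, 4 at D3 and 4 over all doses, in each case granule genes and in each case lower. Of all tested lung probes, 577 passed that limit at D1, 1390 at D2 and 2622 at D3. Complete separation below the vehicle lungs was seen for 3 of 10 genes at D1, 2 at D2 and 2 at D3, beside 2.36%, 1.13% and 2.38% of all lung probes. For the 11 dosed lungs together it was 2 of 10, Gzma and Prf1, beside 0.162% of the probes. The 10 genes were chosen with earlier results of these data known, so these counts are a description and no test of the set.

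The linear trend over dose was -1.63 per 100 mg/kg-bw/day for Gzma (SE 0.77, adjusted p = 0.58), -0.69 for Gzmb (SE 0.31, adjusted p = 0.57) and -0.34 for Prf1 (SE 0.15, adjusted p = 0.55). Under the background-subtracted LogRatio of the scanner the Gzmb trend turned to 0.083. For Gzma, Gzmb and Prf1 the mean of D1, the lowest dose, lay below that of D3.

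Within slides, each dosed lung was set against the vehicle lung of its slide, which gave 3 pairs for D1, 4 for D2 and 4 for D3. Gzma, Gzmb and Prf1 were lower in the dosed lung in all 11 pairs, and Nkg7 in 2 of 3, 4 of 4 and 4 of 4, with D1 mouse 8 higher by 0.13. For Gzma the pair differences ran from -3.00 to -1.23 at D1, -3.55 to -1.23 at D2 and -2.94 to -1.31 at D3, and for Gzmb from -1.28 to -0.55 at D3. With slide as a block in the fit, the difference over all doses was -2.15 for Gzma (adjusted p = 0.10), -0.84 for Gzmb (adjusted p = 0.0605), -0.42 for Prf1 (adjusted p = 0.22) and -0.25 for Nkg7 (adjusted p = 0.59), and none was called. For Gzma the adjusted p of this comparison ran from 0.10 to 0.49 over the alternatives, and for Gzmb from 0.0605 to 1.00.

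The T cell genes of lung overlapped between the vehicle and dosed groups at every dose. Cd3d, a chain of the receptor complex, was 2.82, 2.39, 3.34 and 2.22 in vehicle lungs, 2.35 to 3.06 at D1, 1.79 to 3.11 at D2 and 2.11 to 3.18 at D3. The difference over all doses was 0.02 (95% interval -0.54 to 0.57). Cd3e, the chain that binds receptor and signalling partners, had means of -0.59 ± 0.24 at D0 (SD, n = 4), -0.54 ± 0.10 at D1 (n = 3), -0.65 ± 0.33 at D2 (n = 4) and -0.57 ± 0.33 at D3 (n = 4). Its difference over all doses was 0.01 (95% interval -0.32 to 0.33), and within slides it was lower in the dosed lung in 3 of 3 pairs at D1, 2 of 4 at D2 and 3 of 4 at D3. Cd3g ran from -1.33 to -0.77 at D0, -1.18 to -0.77 at D1, -2.08 to -0.61 at D2 and -0.999 to -0.604 at D3, with a difference of 0.01 (95% interval -0.43 to 0.45).

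Among the co-receptors, Cd4 differed by -0.09, -0.15 and 0.02 at D1, D2 and D3, and by -0.07 over all doses (95% interval -0.26 to 0.11). Within slides Cd4 was lower in the dosed lung in 3 of 3 pairs at D1, 4 of 4 at D2 (-0.43 to -0.017) and 2 of 4 at D3. Cd8a was dim, above background on 10 of 15 lung arrays, and differed by 0.01 over all doses (95% interval -0.37 to 0.38). Its 3 arrays on slide 4 read 1.15, 1.03 and 0.98, above all others (0.17 to 0.58), whatever the dose. Lck differed by -0.14, -0.42 and -0.08 at D1, D2 and D3, where the D2 value rested on mouse 12 at -2.01. Without that array it was -0.07 at D2.

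The array of D2 mouse 12 was also the lowest of lung for Cd3d (1.79), Cd3g (-2.08) and Gzma (1.20), so the comparisons were run again without it. Gzma then differed by -1.77 at D2 (adjusted p = 0.81) and by -2.09 over all doses (adjusted p = 0.17), Gzmb by -0.86 and Prf1 by -0.43 over all doses. With the skeletal muscle score as a covariate the Gzma difference over all doses was -2.06 (adjusted p = 0.16). Cd3d, Cd3e and Cd3g gave 0.12, 0.03 and 0.12 without the array.

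**Figure D2:**
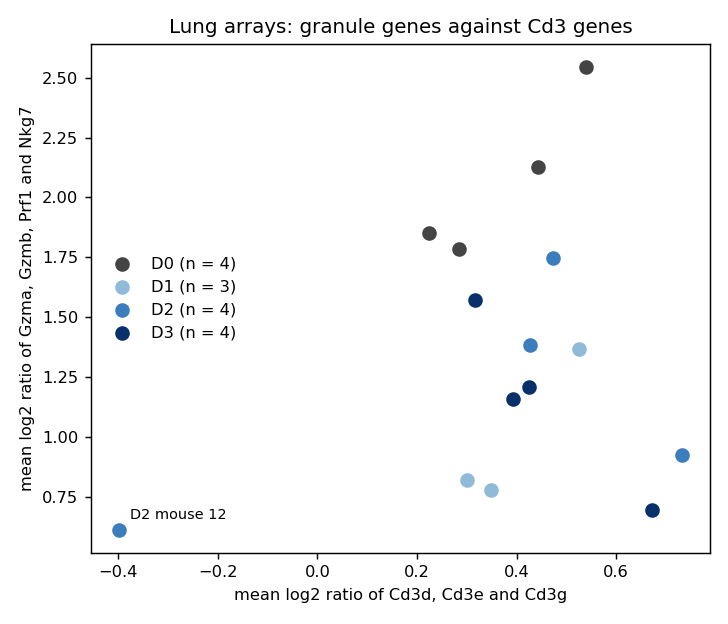
Mean log2 ratio of Gzma, Gzmb, Prf1 and Nkg7 (y axis) against that of Cd3d, Cd3e and Cd3g (x axis), with 1 point per lung array coloured by dose group. The vehicle arrays span 1.79 to 2.54 on the granule axis and all dosed arrays lie at or under 1.75, while on the Cd3 axis the groups overlap and D2 mouse 12 stands alone at -0.40.

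Averaged over the 4 granule genes, the vehicle lungs lay between 1.79 and 2.54 and the dosed lungs between 0.61 and 1.75. Averaged over the 3 Cd3 genes, the vehicle lungs lay between 0.22 and 0.54 and the dosed lungs between -0.40 and 0.73. Whether the granule and Cd3 averages differ in their response was not tested, since the genes were grouped with these results known.

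Other genes of the same cells were read from 4 lists, and 0 of their members were called in lung. Of the 18 further cytotoxic and NK genes, 14 were tested. Over all doses 12 of the 14 were lower, with a median difference of -0.38 against -0.0007 over all lung probes, and 6 had an unadjusted p under 0.05, all lower, beside 1561 of 32695 probes in all. Several of the 14, such as Klre1 and Fasl, passed the filter on dim probes mainly through the vehicle lungs, so these counts are a description only. At D3 the median was -0.48 against 0.0039 over all probes.

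Ccl5, a chemokine that cytotoxic T and NK cells store and secrete, had the largest difference of the list. It was 0.18, -0.11, 0.44 and -0.16 in the vehicle lungs and ran from -1.62 to -0.63 at D1, -2.90 to -0.80 at D2 and -1.88 to -0.76 at D3. Every dosed lung lay below every vehicle lung. The difference was -1.27, -1.64 and -1.51 at the rising doses (SE 0.42, 0.39 and 0.39) and -1.48 over all doses (adjusted p = 0.28). With the skeletal muscle score as a covariate it was called at D3 (-1.50, adjusted p = 0.041) and over all doses (-1.30, adjusted p = 0.049), whereas the other alternatives gave adjusted p values from 0.16 to 0.48 over all doses.

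Apart from Ccl5 and Klrd1, the genes of this list named here were picked after their values were seen, and none was called. Klrd1, the CD94 chain of NK receptors, differed by -0.77, -0.79 and -0.66 at D1, D2 and D3 (adjusted p = 1.00, 1.00 and 0.65), and was above background in 4, 2, 2 and 4 lungs of D0, D1, D2 and D3. Ncr1, the activating receptor NKp46 of NK cells, was above background in 3 of 4 vehicle lungs but in 1, 2 and 1 lungs of D1, D2 and D3. Klre1, another NK receptor, and Fasl, the death ligand of killer cells, were above background in 3 of 4 vehicle lungs each and in at most 1 lung of any dosed group, so no size is given for Ncr1, Klre1 and Fasl. In contrast, Gzmm, Il18rap and Gzmk lay within 0.09 of the vehicle group over all doses. Not all genes of cytotoxic cells thus had lower values. Cst7 also lay within 0.09, but it was at background in vehicle mice 2 and 4, so a fall could not show there.

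**Figure D3:**
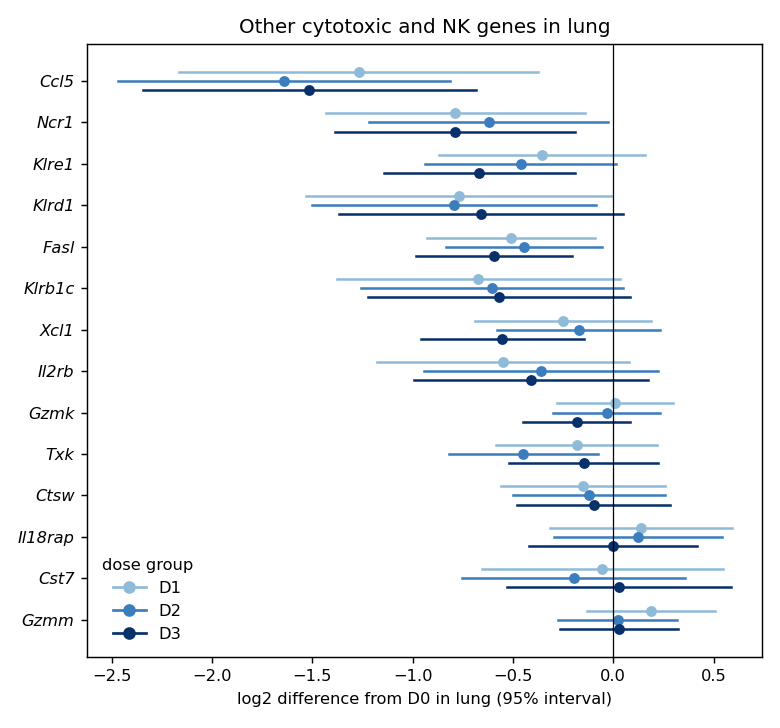
Difference from D0 in lung (x axis, log2, bars 95% limma intervals) of the 14 tested cytotoxic and NK genes outside the 10, at D1, D2 and D3 from light to dark blue. Ccl5 lies farthest below 0 at each dose, from -1.64 to -1.27, and Gzmm and Il18rap lie around 0. Cst7 does too, but it was at background in some vehicle lungs. Ncr1, Klre1 and Fasl were at background in most dosed lungs, so their points show no size.

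The medians of the lists of T cell genes lay around 0. Of the 10 further T cell receptor and co-receptor genes 8 were tested, with a median difference of -0.004 over all doses. The largest differences over all doses were -0.29 for Icos, a co-stimulatory receptor, and 0.22 for Cd5, an inhibitor of receptor signalling. Of the 13 signalling genes 11 were tested, with a median of -0.07, and Prkcq, a kinase downstream of the receptor, differed by 0.27. At single doses the signalling genes spread wider, from -0.45 to 0.75 at D2 and from -0.20 to 0.41 at D3. The 8 T cell transcription factors had a median of -0.03. Within that list, Tbx21 and Eomes are the T-box factors that direct cytotoxic T and NK cells. Tbx21 was 1.41, 1.37, 2.17 and 0.98 in vehicle lungs and 0.36 to 1.21 in the dosed lungs, with differences of -0.88, -0.71 and -0.50 at D1, D2 and D3 and -0.69 over all doses (adjusted p = 0.51). Eomes was not called and was above background in 3 vehicle lungs and in 1, 2 and 1 lungs of D1, D2 and D3, so no size is given.

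Markers of other leukocytes were read on the same lung arrays, as the mean log2 ratio of each list. Neutrophil markers (6 of 7 on the array, 5 or 6 above background in every group) lay at 1.57 to 2.28 in D0, 2.08 to 3.25 in D1, 2.79 to 4.52 in D2 and 2.11 to 2.82 in D3. Plasma cell markers (5 of 5) lay at -0.91 to -0.77 in D0, -1.03 to -0.96 in D1, -1.38 to -0.93 in D2 and -1.13 to -0.83 in D3. Dendritic cell markers (5 of 5, with Xcr1 above background on no lung array) lay at 0.66 to 0.99 in D0, 0.48 to 0.70 in D1, 0.46 to 0.69 in D2 and 0.45 to 0.69 in D3. Above background were 4 of them on each array of D0, 2 to 4 in D1, 3 to 4 in D2 and 1 to 4 in D3. The dosed means of this list thus rest in part on values at background. The neutrophil list thus lay higher on average and the dendritic and plasma cell lists lower in the dosed lungs, with 0 genes of the 3 lists called, and their part in the result was not tested. B cell markers lay at 0.66 to 1.68 in D0 and 1.26 to 1.89 in D3, and the common leukocyte gene Ptprc at -1.02 to -0.47 in D0 and -1.38 to -0.59 in D3, both with overlap. Of the thymocyte markers, Rag1, Rag2 and Ptcra were above background on no lung array.

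In liver the background was 0% of 30449 probes at D1, 0.0427% at D2, 0.0525% at D3, 0.0755% for the mean of the dosed groups and 0% for the trend, and 0 of the 8 tested genes were called. Gzma was 0.71, 0.13, 0.16 and -0.27 in vehicle livers, -0.11 and -0.46 at D1, 0.07, -0.50 and -0.42 at D2, and -0.22, -0.22, -0.60 and -0.23 at D3. The groups overlapped through vehicle mouse 4 at -0.27. The difference was -0.47, -0.47 and -0.50 at D1, D2 and D3 (SE 0.24, 0.21 and 0.19) and -0.48 over all doses (95% interval -0.84 to -0.12, adjusted p = 0.56). It was the only liver gene of the set under an unadjusted p of 0.05, at D2 and D3, where 3261 and 2376 of all liver probes also were. The liver array of D3 mouse 17 carried skeletal muscle markers (mean log2 ratio 3.49, against -0.97 to -0.71 on the others), and without it the Gzma difference at D3 was -0.53. The liver array of D2 mouse 13 had the highest neutrophil markers (2.65, against -0.16 to 0.82) and the most probes above background (32072, against 21354 to 25811).

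Nkg7 lay slightly above the vehicle livers, by 0.18, 0.21 and 0.18 at D1, D2 and D3 (adjusted p = 1.00, 0.59 and 0.76), and Prf1 differed by -0.15, 0.10 and -0.07. The T cell genes lay within 0.36 of the vehicle mean at each dose, but with the scanner software's background-subtracted ratio Cd3d and Cd3g differed by 1.02 and 1.01 at D3, and Gzma by -1.07, none of them called. Cd3d differed by 0.18 over all doses (95% interval -0.14 to 0.50), Cd3e by -0.18 (-0.49 to 0.12), Cd3g by 0.25 (-0.28 to 0.79), Cd4 by -0.11 (-0.48 to 0.27) and Lck by 0.07 (-0.19 to 0.33).

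In forestomach 0% of 25305 probes were called at D1, 0% at D2, 0% at D3, 0% over all doses and 0% for the trend, and none of the 6 tested genes was called. An unadjusted limma p under 0.05 was seen for 3070, 1920 and 557 probes at D1, D2 and D3, and for 0, 1 and 0 of the genes. Nkg7 was 1.11, 1.00, 0.67 and 0.63 in the vehicle mice 1, 2, 3 and 4, 0.48 to 0.72 at D1, 0.28 to 0.64 at D2 and 0.10 to 1.00 at D3, with overlap at each dose. Its difference was -0.24, -0.45 and -0.31 at D1, D2 and D3 (adjusted p = 0.62, 0.61 and 1.00). Prf1 lay below every vehicle value at D3, at -0.40, -0.29 and -0.28 against -0.23 to -0.02, with a difference of -0.19 (SE 0.11, adjusted p = 1.00). The same separation was seen for 281 of 25305 probes. Prf1 was above background in 2 of 4 vehicle forestomachs and in 2 of 3 of D3.

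Glandular stomach markers differed between these groups: they read 0.46 and 0.78 in vehicle mice 1 and 4 and 5.78 and 5.84 in the other vehicle mice, 5.67 to 6.03 at D1, 1.55 to 6.19 at D2, and 1.07 and 1.24 in 2 of the 3 mice of D3. With their score as a covariate the D3 differences were -0.35 for Nkg7, -0.20 for Prf1 and -0.17 for Cd3e, and 0 of the genes were called at any dose.

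Among the T cell genes of forestomach, Cd3e differed by 0.33, 0.02 and -0.13 at D1, D2 and D3, and Cd3g by 0.04, -0.12 and -0.20. Cd4 differed by 0.10, 0.15 and -0.14, and Lck by -0.09, -0.27 and -0.11. Each gene overlapped with the vehicle group and had an adjusted p of at least 0.67. Cd3g was above background in no forestomach of D0 or D1, so its values show no size. Here too slide 4 stood apart: its 4 arrays read -1.39 to -1.06 for Cd3e, against -0.85 to -0.09 on the other 10. That slide held vehicle mice 2 and 3, D2 mouse 15, D3 mouse 16 and no mouse of D1. The Cd3e difference at D1 and the slide therefore cannot be fully told apart.

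**Figure D4:**
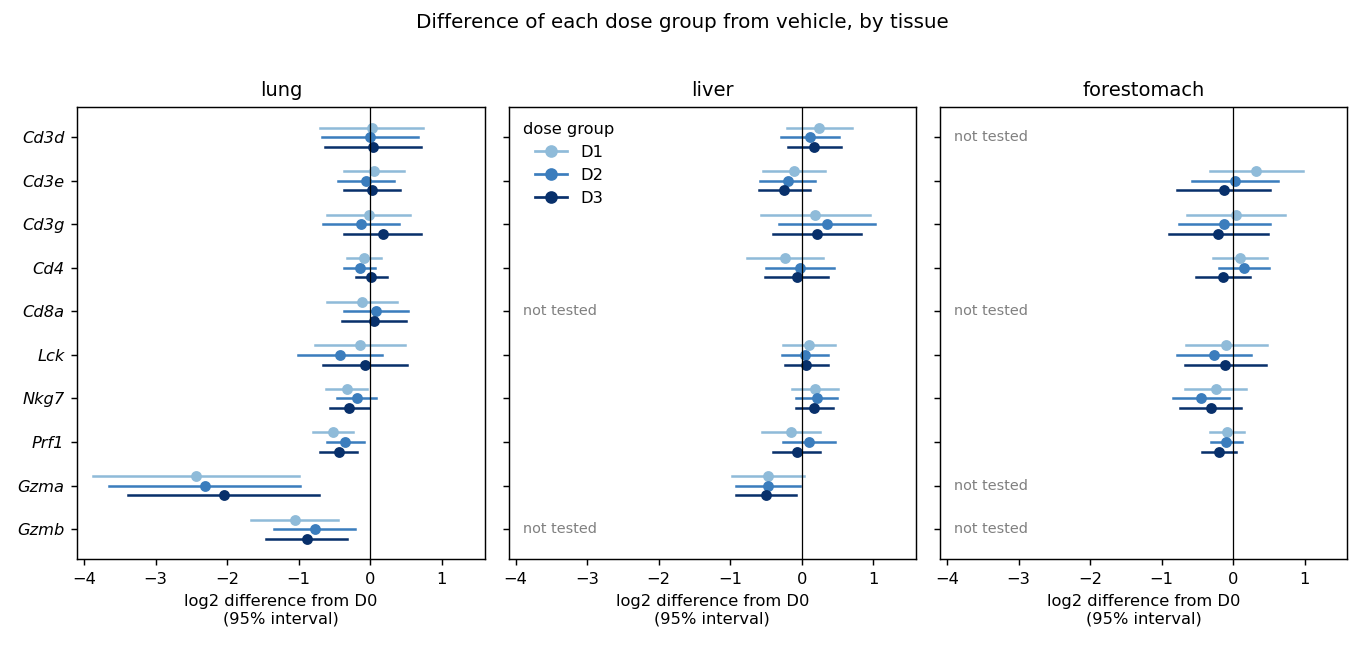
Difference of each dose group from D0 (x axis, log2, bars 95% limma intervals) for the 10 genes in lung, liver and forestomach, at D1, D2 and D3 from light to dark blue. In lung the Gzma, Gzmb and Prf1 intervals lie below 0 at every dose, while those of the Cd3 genes, Cd4, Cd8a and Lck span 0 in all tissues, and genes marked not tested were too dim.

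Whether the high dose acted differently in the tissues was tested directly, as the D3 difference of one tissue minus that of another, in 1 fit over all 42 arrays. Between lung and liver 0.0153% of 26068 probes were called by adjusted p alone, and 0 of the 8 genes were. Gzma was lower in lung than in liver by 1.55 more (log2 difference of differences -1.55, SE 0.61, adjusted p = 0.87), and the values for Nkg7 and Prf1 were -0.47 and -0.37 (adjusted p = 0.92 and 0.95). Between lung and forestomach 0.0122% of 24504 probes were called, with -0.25 for Prf1 and 0.02 for Nkg7 among 6 uncalled genes. Between liver and forestomach 0% of 22685 probes were called, and the largest of 6 values was 0.49 for Nkg7 (adjusted p = 1.00). A different response of the granule genes by tissue was therefore not shown.

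Unexposed tissues were then compared with each other. Between vehicle lung and liver 23.4% of 37076 probes were called higher in lung and 17.4% lower. By the same test 6 of the 10 genes were higher in lung and 1 was lower. Gzma was 5.51, 4.75, 5.73 and 4.68 in lung against 0.71, 0.13, 0.16 and -0.27 in liver, a difference of 4.98 (SE 0.43, adjusted p = 4.1e-12). Lck was -0.92 to -0.10 in lung and -3.56 to -3.27 in liver, a difference of 2.88 (SE 0.24, adjusted p = 1.5e-12).

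Cd3d was 2.78 higher in lung than in liver (SE 0.24), though only 1 vehicle liver was above background for it. Cd3e and Cd3g were 0.84 and 0.87 higher (adjusted p = 0.0017 and 0.012). Under the scanner's LogRatio these became 0.58, under the 1.5-fold limit, and 2.45. Gzmb was above background in no vehicle liver, so its level in lung was at least 2.39-fold higher (adjusted p = 1.2e-10), a bound that sets the lung mean against the dimmest signal counted as above background. Cd8a, above background in 2 of 4 vehicle lungs and no vehicle liver, was not called (at least 1.17-fold, adjusted p = 0.0012). Under the scanner's LogRatio Cd8a (adjusted p = 0.00022) and Prf1 (0.76, adjusted p = 0.023) were called higher in lung, and for Cd8a the bound is the only size given. Cd4 ran the other way by its brighter probe, at 0.21 to 0.43 in lung and 3.62 to 3.87 in liver (-3.40, SE 0.16). Its second probe was above background in 2 of 4 vehicle lungs and no vehicle liver. That probe gives no size and does not show a higher level in liver. The second Nkg7 probe, above background in 1 of 4 vehicle livers, was called higher in lung, while the brighter one differed by 0.46 (adjusted p = 0.0066), under the 1.5-fold limit.

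Between vehicle lung and forestomach 18.4% of 33496 probes were higher in lung and 15.1% lower, and 4 of 10 genes were higher. Gzma, Cd3d and Gzmb were above background in no vehicle forestomach, which gave bounds of at least 31.2-fold, 5.55-fold and 2.32-fold (adjusted p = 2e-12, 5.5e-12 and 4.9e-10). Lck differed by 1.60 (SE 0.24). Cd3e, at -1.09 to -0.09 in forestomach, did not separate the tissues (0.14, 95% interval -0.31 to 0.60), and neither did Prf1 (0.21, 95% interval -0.04 to 0.46). Cd3g and Cd8a were also above background in no vehicle forestomach, with bounds of at least 1.54-fold and 1.05-fold. Under the scanner's LogRatio both were called higher in lung (adjusted p = 0.0010 and 0.00055), which gives no size.

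Between vehicle liver and forestomach 17% of 33069 probes were higher in liver and 20.6% lower. Cd4 was higher in liver by its brighter probe (3.12, SE 0.16), while its second probe was above background in neither vehicle tissue. Cd3e and Lck were lower in liver (-0.69, SE 0.22, and -1.28, SE 0.24, adjusted p = 0.0096 and 2.8e-05). The remaining 5 of 8 tested genes were not called. Gzma was above background in 4 vehicle livers and no vehicle forestomach, which gave a bound of at least 1.68-fold. It was not called (adjusted p = 0.39), though it was with the scanner software's ratio (adjusted p = 0.0042). The order of Lck was lung, forestomach and liver, each step called.

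**Figure D5:**
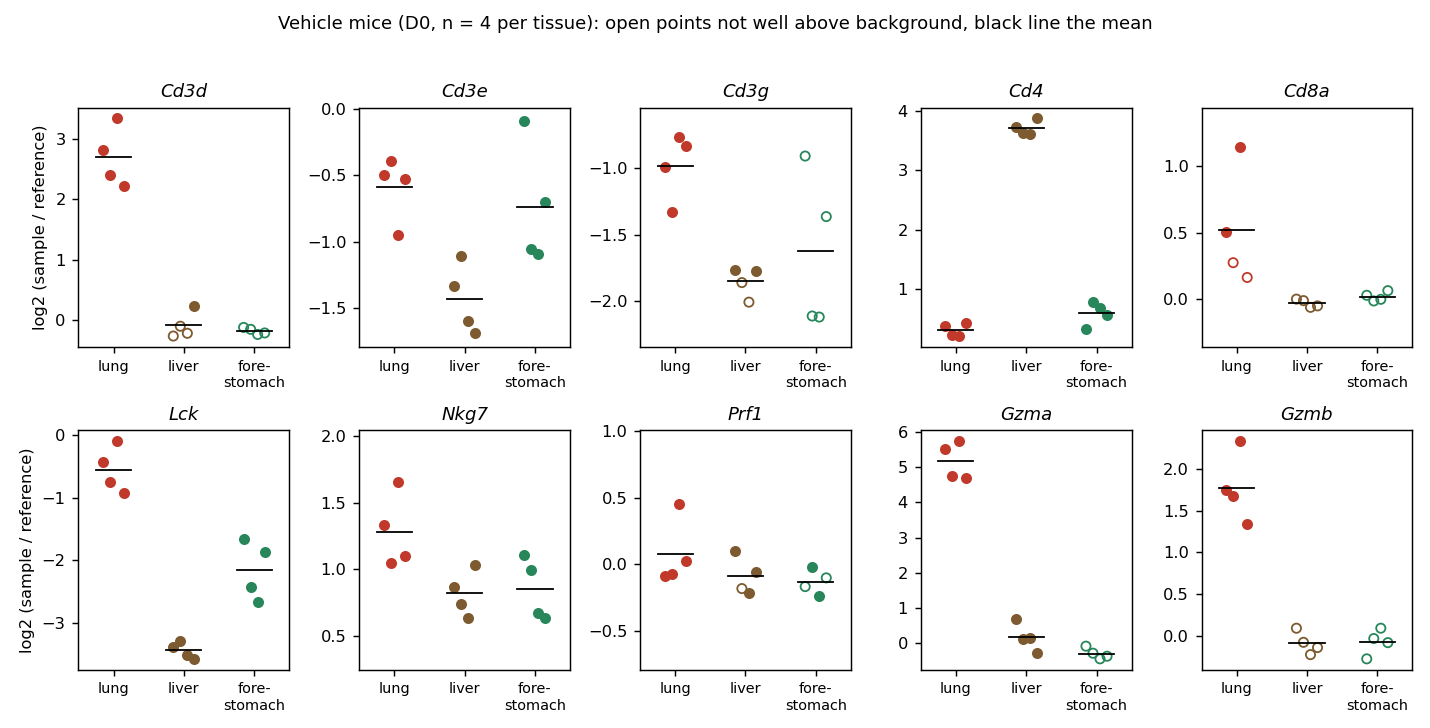
Log2 ratio over the reference RNA (y axis) of the 10 genes in the vehicle mice by tissue (x axis), with 1 point per mouse and the mean as a black line. Open points were not well above background. Gzma, Gzmb, Cd3d and Lck stand highest in lung, and Cd4, shown by its brighter probe only, stands highest in liver.

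Some of the genes varied together among lungs of the same dose. Over 15 lung arrays, with dose group means removed, Pearson's r was 0.89 for Gzma and Gzmb, 0.85 for Cd3g and Lck, 0.82 for Cd8a and Gzmb, and 0.81 for Cd3d and Lck. Gzma and Prf1 had an r of 0.32. Cd3e ran against several genes, with -0.66 for Cd8a, -0.53 for Gzmb, -0.43 for Nkg7 and -0.16 for Cd3d, and Cd3d and Cd4 had -0.43. The Cd3e probe read low on slide 4 (-1.01 to -0.91), where Cd3d, Cd8a, Gzma and Gzmb were high. These arrays share slides and brightness, and the values are descriptive. D2 mouse 12 was the lowest lung array for Cd3d (1.79), Cd3g (-2.08) and Lck (-2.01), which can raise the r among them. No r was computed without that array, here or for the genes most like the Cd3 genes. Among 14939 genes compared, the pattern of Cd3d, Cd3e and Cd3g over the lung arrays was most like that of Thy1 (r = 0.94), a T cell surface protein, followed by Vamp2, Slc27a3, Agrn and Bicc1 (0.89 to 0.91). In liver the most alike were Zfp687, Lsm6, Rnf8, Prmt8 and Rufy3 (0.92 to 0.97, 13 arrays). In forestomach they were Nuf2, Phf11b, Lef1, Ercc6l and Fam167b (0.97 to 0.98, 14 arrays). Cd3d was above background there on 0 arrays and Cd3g on 3, so that pattern rests in part on values at background.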

How the data were processed

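Per the file headers, the deposited intensity values are median pixel intensities of 42 Agilent 2-colour arrays from Feature Extraction 10.7.3.1 (lung, forestomach) and 11.0.1.1 (liver), with tissue RNA in Cy5, reference RNA in Cy3 and no dye swap. The deposited log10 ratio (LogRatio) of the same files is background-subtracted and dye-normalised by the scanner software. The authors also deposited a table of log2 ratios, LOWESS-normalised from medians without background subtraction, whose liver columns could not be matched to the liver arrays. The fold changes and p-values of the study were not used.

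Here log2 of red over green medians was loess-normalised within each array (limma 3.58.1, R 4.3.3), without the 3671 control spots, and spots of 1 probe were averaged. Of 55681 probes, 26413 (47.4%) were named through RefSeq accessions. The brightest probe stands for a gene. A probe was kept when its red signal was well above background on at least 3 lung, 2 liver or 3 forestomach arrays. Groups were fitted per tissue with lmFit and eBayes, and tissues in 1 fit over all arrays, with Benjamini-Hochberg adjustment over all kept probes. Trends and differences between tissues in the D3 effect were called by adjusted p alone. The fit was tested on simulated data. Array number limits the precision, and p-values measure the spread between mice.

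The members and all lists were chosen with earlier results of these data known. From each context list the called genes and the 2 of largest difference per comparison were to be named, and the 5 genes per tissue most like the Cd3 genes; others were named after their values were seen. Of 49 context genes in 4 lists all had a probe, and of 86 marker genes 83 did. Mice were measured in several tissues: deviations of the same mouse from its group means correlated with a median r of 0.0707 (lung and liver, 13 mice), 0.153 (lung and forestomach, 14) and 0.0291 (liver and forestomach, 12). Alternatives were normexp correction, LogRatio, the authors' table, no filter, slide and mouse blocks, only the groups compared, and each array left out. The mean of the dosed groups, the muscle covariate and the fit without lung D2 mouse 12 were added after seeing the data. Context genes are named for lung doses only, and 1 item there is not reported here.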

Additional observations from a re-analysis of the deposited data

Results flagged for a closer look

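For each gene tested in a tissue, the highest and lowest array of every dose group with 4 mice was set against the rest by Dixon's ratio at its 95% critical value. Of 58 such sets of 1 gene in 1 group, of which chance passes about 1 in 20, 5 stood apart. In the livers of D3, Cd3e was -2.04 in mouse 20, Cd3g was -0.94 in mouse 19 and Gzma was -0.60 in mouse 19, whose array was among the 2 brightest of liver (median red intensity 107). Lck was -2.01 in lung D2 mouse 12, the array with skeletal muscle markers, and -2.06 in forestomach D2 mouse 13.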

How the results depend on the processing

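The count of genes called in each dose comparison was 0 under every alternative and with each array left out. Between vehicle tissues the counts ran from 7 to 8 (lung and liver), 4 to 6 (lung and forestomach) and were 3 each time (liver and forestomach) over the alternatives. With LogRatio the count for liver and forestomach lost Cd3e (-0.36, adjusted p = 0.21) and gained Gzma (adjusted p = 0.0042), which was at background in vehicle forestomach. The background-subtracted LogRatio of the scanner turned the sign of uncalled values: Gzmb lung dose trend 0.083, Cd4 lung D3 -0.021, Lck forestomach D3 0.090, Prf1 liver D3 0.039 and Prf1 vehicle liver against forestomach -0.13. It also moved uncalled liver D3 values of dim probes: Cd3d from 0.18 to 1.02, Cd3g from 0.22 to 1.01 and Gzma from -0.50 to -1.07. Between vehicle lung and liver it gave 0.58 for Cd3e (adjusted p = 0.04), no longer called, 2.45 for Cd3g, and calls for Cd8a and Prf1 (0.76). Against forestomach it added calls for Cd8a and Cd3g. No size is given for Cd8a in either comparison or for Cd3g against forestomach, since the other tissue was at background. With the authors' table the D3 effect of Nkg7 in lung against forestomach was -0.010. The cause was not tested. That table was not run for liver, whose columns could not be matched.

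Leaving out each array in turn changed the sign of uncalled differences near 0. At D3 in lung the ranges were -0.12 to 0.26 (Cd3d), -0.098 to 0.16 (Cd3e), -0.045 to 0.086 (Cd4), -0.077 to 0.26 (Cd8a) and -0.20 to 0.074 (Lck). At D3 in liver they were -0.018 to 0.30 (Cd3g), -0.25 to 0.089 (Cd4), -0.0021 to 0.20 (Lck) and -0.11 to 0.018 (Prf1), and in forestomach -0.38 to 0.13 (Cd3e), -0.46 to 0.035 (Cd3g) and -0.39 to 0.056 (Lck). Between vehicle liver and forestomach they were -0.013 to 0.15 (Cd3d), -0.39 to 0.013 (Cd3g), -0.11 to 0.053 (Nkg7) and -0.021 to 0.084 (Prf1), and for the D3 effect of Nkg7 in lung against forestomach -0.20 to 0.25. The lower Cd3e of vehicle liver against forestomach was not called without forestomach D0 mouse 1 (-0.48, adjusted p = 0.077).

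With the mouse as a replicate block (consensus correlation 0.0594), the counts between vehicle tissues stayed at 7, 4 and 3, and 0 genes were called in the D3 effects. Dim signal limits Cd8a and Gzmb outside lung, and Cd3d and Gzma in forestomach.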
